A study of Mus musculus with 9 samples.

Results

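Tumour necrosis factor (TNF), 3 other ligands of its superfamily, 3 receptors, the protease that sheds TNF and an adaptor of its receptors were followed in mouse microglia after an inflammatory challenge. The 9 genes, Tnf, Tnfsf9, Tnfsf10, Tnfsf13b, Tnfrsf1a, Tnfrsf1b, Cd40, Adam17 and Traf1, were taken by symbol from a table of 23134 genes, and all 9 were found there and passed the filter on low values that left 16575 genes for testing. The libraries fall into 3 groups of 3. They are mice whose astrocytes carry a conditional knockout (cKO) of Chd8, a chromatin remodeller, given lipopolysaccharide (LPS, from the outer membrane of bacteria), control mice given LPS, and control mice given saline. LPS was injected into the peritoneum at 5 mg/kg in mice aged 2 to 3 months, and brains were taken 72 hours later. Cortex and hippocampus were dissociated, although the tissue label names cortex alone. Astrocytes were removed on ACSA-2 beads and the rest was sorted on CD11b beads, so the cells measured are not the cells in which Chd8 was deleted, and CD11b is also carried by other myeloid cells and NK cells. As for the driver of the deletion in astrocytes, the strain, the sex and the alleles of the control mice, each was not given in the sources used here. Titles of the cKO samples say saline where their genotype and treatment labels and the names of the authors' comparisons say LPS. Titles of the control LPS samples hold both words, saline and LPS, and their genotype labels say LPS. LPS was used for both groups. A cKO group given saline was not analysed here, so an effect of the deletion at rest was not measured.

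TNF is made as a membrane protein, mostly by myeloid cells, and is released when the metalloprotease ADAM17 cuts it from the cell surface. It binds a widely expressed receptor with a death domain (Tnfrsf1a) and another that is richer on microglia and other immune cells (Tnfrsf1b), and both signal through TRAF adaptors to NF-kB. In the brain microglia are its main source, and its transcription responds within hours to LPS and also to handling of the cells. Other ligands of the superfamily act through their own receptors to costimulate T cells (Tnfsf9), to kill cells (Tnfsf10) or to keep B cells alive (Tnfsf13b).

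The libraries held 33661096 to 86571481 reads in cKO LPS, 38442204 to 52373652 in control LPS and 10845937 to 34356433 in control saline, so the saline group was the shallowest. Microglial markers were high in every library, with the 10 listed genes summing to 907000 to 1140000 normalized counts in cKO LPS, 910000 to 1110000 in control LPS and 1030000 to 1480000 in control saline. Control LPS library 1 stood apart by its astrocyte markers, whose 7 genes summed to 81100 there and to 4950 to 8270 in the other 8 libraries. Neutrophil markers summed to 11100 to 20500 in cKO LPS, 11600 to 93400 in control LPS and 764 to 1630 in control saline, where 1 of the 11, Mpo, was at 0 in every library and Ly6g in at least 1. Xist, read from the inactive X chromosome, was at 57619 normalized counts in cKO LPS library 3, at 35559 in control LPS library 3 and at 26508 and 21229 in saline libraries 1 and 3, and at 6.21 or less in the other 5. Chd8 averaged 5629 ± 525 in cKO LPS, 5586 ± 227 in control LPS and 5296 ± 1193 in control saline (SD, n = 3 each), which does not check the genotype because the deletion was made in other cells. The labels do not say that the libraries of a group came from separate mice, and p-values therefore rest on the spread among these libraries, part of which may be technical. In these sorted samples, fewer cells of a type and less RNA per cell cannot be told apart.

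Promoter windows, 250 bases before to 50 after a transcription start in RefSeq on GRCm38.p6, were at hand for 7 of the 9 genes, in 8 windows. They were searched on both strands for the kappa-B consensus, the site of NF-kB, for the core of the interferon-stimulated response element (ISRE; GAAA, any 2 bases, GAAA), and for TGANTCA, the site of AP-1. The kappa-B consensus stood in 8.46% of all 32851 mouse windows there, the ISRE core in 3.44% and TGANTCA in 7.81%. The windows of Tnf (chr17:35201958-35202257, minus strand), Traf1 (chr2:34961723-34962022, minus strand), the downstream start of Tnfsf13b (chr8:10006383-10006682, plus strand) and Tnfrsf1b (chr4:145246821-145247120, minus strand) are shown, Tnf because it heads the family, Traf1 and Tnfsf13b because they rose, and Tnfrsf1b as the receptor gene that holds a match. Capitals mark the matches.
Tnf: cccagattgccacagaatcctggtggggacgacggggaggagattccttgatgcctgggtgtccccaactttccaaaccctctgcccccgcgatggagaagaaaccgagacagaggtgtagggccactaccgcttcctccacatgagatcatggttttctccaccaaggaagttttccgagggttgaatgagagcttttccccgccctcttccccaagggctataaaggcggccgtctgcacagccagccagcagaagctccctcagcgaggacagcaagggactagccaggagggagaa
Traf1: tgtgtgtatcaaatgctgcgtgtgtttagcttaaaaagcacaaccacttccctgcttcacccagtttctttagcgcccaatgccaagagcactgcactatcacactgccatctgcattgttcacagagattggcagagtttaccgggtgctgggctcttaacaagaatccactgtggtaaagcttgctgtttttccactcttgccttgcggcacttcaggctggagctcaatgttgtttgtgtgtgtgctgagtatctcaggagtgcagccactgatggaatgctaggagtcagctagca
Tnfsf13b: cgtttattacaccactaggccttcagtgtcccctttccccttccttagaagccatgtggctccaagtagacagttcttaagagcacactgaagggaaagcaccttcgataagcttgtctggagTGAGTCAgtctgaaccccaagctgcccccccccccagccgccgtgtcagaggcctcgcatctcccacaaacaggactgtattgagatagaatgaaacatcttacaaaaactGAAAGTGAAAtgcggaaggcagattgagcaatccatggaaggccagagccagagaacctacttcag
Tnfrsf1b: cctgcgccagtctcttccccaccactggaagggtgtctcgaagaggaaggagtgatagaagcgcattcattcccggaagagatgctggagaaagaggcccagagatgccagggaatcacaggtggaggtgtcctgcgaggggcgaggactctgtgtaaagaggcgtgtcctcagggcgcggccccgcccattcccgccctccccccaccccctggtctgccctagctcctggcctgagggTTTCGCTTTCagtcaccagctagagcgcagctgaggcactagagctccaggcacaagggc
Tnfsf13b held the ISRE core from -16 to -7 and TGANTCA from -127 to -121 of its downstream start. The window of its upstream start, which is not shown, held the same TGANTCA from 40 to 46 and no ISRE core, so the matches depend on the start taken. Tnfrsf1b held the ISRE core in reverse from -10 to -1. The letters of the 3 motifs were in neither the Tnf nor the Traf1 window, and none of the 8 windows held the kappa-B consensus. A match is a description of the letters and not a measured site.

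Per kilobase of exon, Tnf was the highest of the 9 genes by group mean in each of the 3 groups. Its libraries lay at 3524 to 7903 normalized counts per kilobase in cKO LPS, 10045 to 19728 in control LPS and 12723 to 14206 in control saline. Among the 15388 tested genes with an exon length it stood between the 97.2 and 99.5 percentiles of level per kilobase. Its order and percentile assume that its annotated exons were the stretch counted, which the sources used here do not give. In cKO LPS the range of Tnf overlapped that of Tnfrsf1b, the next gene in order, at 4708 to 5627. In control LPS and control saline it did not, with Tnfrsf1b at 3749.8 to 5700.0 in control LPS and at most 4078 in control saline.

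Tnfrsf1a followed at 2933 to 3445 normalized counts per kilobase in cKO LPS, 3187 to 3861 in control LPS and 2865 to 3320.2 in control saline. The receptor genes overlapped each other in control LPS and control saline but not in cKO LPS. Adam17 lay at 1612 to 1690.3 in cKO LPS, 1168 to 1752 in control LPS and 955 to 1145 in control saline. Tnfsf9 came below it in cKO LPS and control saline, and in control LPS the ranges of Tnfsf9 and Adam17 overlapped. Tnfsf13b, Tnfsf10, Cd40 and Traf1 reached at most 202 per kilobase in any library, and Cd40 and Traf1, the lowest, overlapped in each group. Cd40 rested on 19 to 455 reads per library and Traf1 on 18 to 935, with the fewest in saline library 3.

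**Figure D1:**
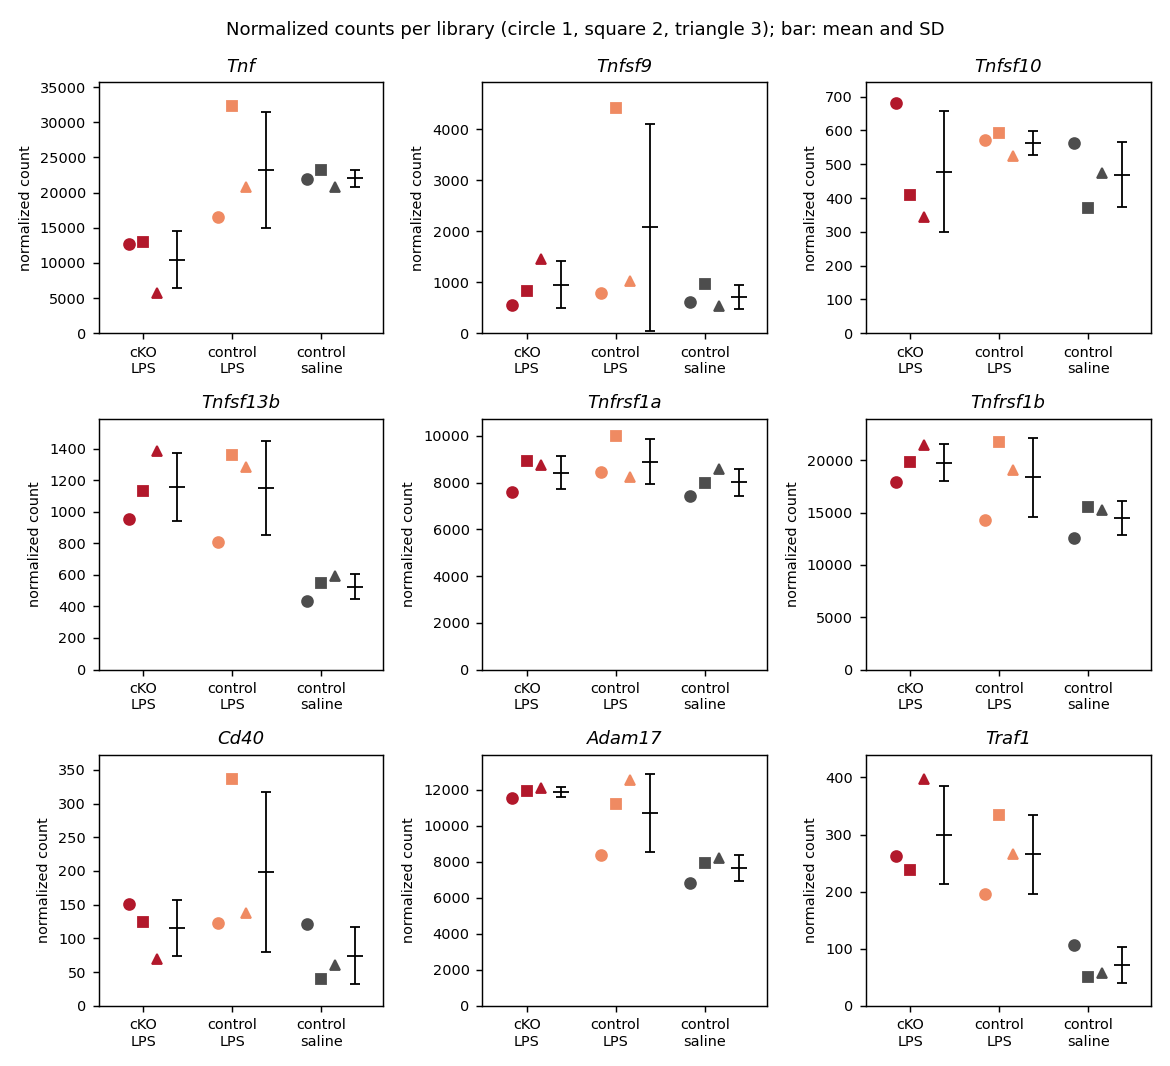
Normalized count (y axis, from 0) of each of the 9 genes in cKO LPS, control LPS and control saline, 1 panel per gene and 1 symbol per library, with the mean and SD of each group. Traf1 and Tnfsf13b lie higher in all 6 LPS libraries than in the 3 saline libraries, and Tnf lies lower in the 3 cKO LPS libraries than in the other 6.

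Control LPS against control saline sets control mice 3 days after LPS against control mice given saline, with no earlier time measured. Of the 9 genes 2 rose, the adaptor gene Traf1 and the B cell survival factor gene Tnfsf13b, and none fell, at an adjusted p under 0.05. Over all 16575 tested genes 5.6% were called, 4.68% higher and 0.923% lower (limma on log2(value + 1), Benjamini-Hochberg adjustment over all tested genes). The libraries of the groups did not overlap for 4 of the 9, all higher in control LPS, where 13.4% of all genes were higher and 8.23% lower without overlap. The median log2 fold change of the 9 genes was 0.47, beside 0.02 over all tested genes. Tnf itself, both TNF receptor genes, Tnfsf9, Tnfsf10, Cd40 and Adam17 did not pass the threshold.

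Between cKO LPS and control LPS, which sets microglia beside Chd8-deleted astrocytes against microglia beside intact ones, none of the 9 genes passed the threshold. None of the 16575 tested genes did either (limma, called 0%), while 263 (1.59%) had an unadjusted p under 0.05, edgeR called 0 and DESeq2 on the recovered reads 4. Tnf was the gene of the 9 with the largest difference, at 10486 ± 4080.5 normalized counts in cKO LPS and 23208 ± 8199 in control LPS (SD, n = 3 each). It was also the 1 of 9 whose libraries did not overlap, lower in cKO LPS, where 2.32% of all genes were lower and 2.7% higher without overlap.

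Between cKO LPS and control saline 3 of the 9 genes rose, Traf1, Tnfsf13b and Adam17, and none fell, where 6.82% of all genes were called, 5.41% higher and 1.41% lower (limma). Without overlap 4 were higher, against 17.9% of all genes, and 1, Tnf, was lower, against 13.8%. This comparison shares the cKO LPS libraries with the one before it and the saline libraries with the first, so the 3 are not independent of each other.

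**Figure D2:**
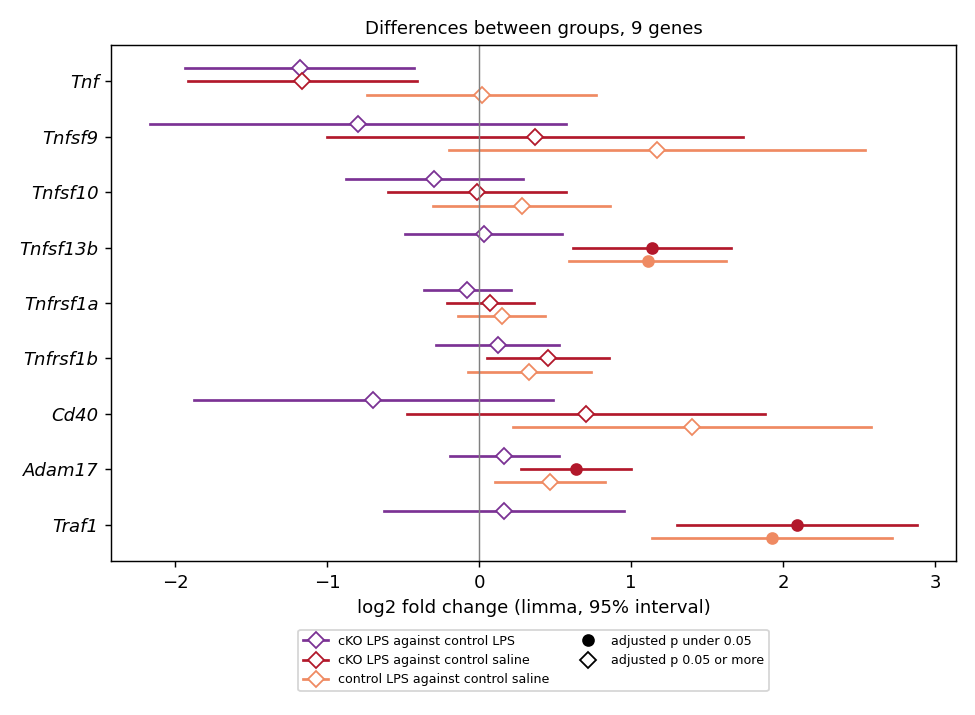
Log2 fold change (x axis) of each of the 9 genes in the 3 comparisons, with 95% intervals from limma and filled circles where adjusted p was under 0.05. Traf1 and Tnfsf13b are filled in both comparisons with saline, Adam17 in that of cKO LPS only, and no gene is filled between cKO LPS and control LPS.

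Among the ligands, Tnf (chromosome 17, 35199367 to 35202007, minus strand, GRCm38) had 12729, 12953 and 5776 normalized counts in the cKO LPS libraries. It had 16464, 32334 and 20826 in control LPS, and 21956, 23284 and 20853 in control saline. The saline libraries were close together, with an SD of 5.52% of the mean, and lay inside the range of control LPS, while all 3 cKO LPS libraries lay below every other library. Control LPS differed from control saline by 0.02 on the log2 scale (95% interval -0.73 to 0.77, limma adjusted p = 0.985).

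Tnf differed between cKO LPS and control LPS by -1.18 on the log2 scale (SE 0.33, 95% interval -1.93 to -0.43). The unadjusted p of 0.00616 was the 22nd smallest of 16575, and the limma adjusted p was 0.9999. Its adjusted p ranged from 0.381 to 1 over the 20 alternatives. In the authors' deposited table of this comparison the log2 fold change was -1.15 and the adjusted p = 0.534. Between cKO LPS and control saline the difference was -1.16 (SE 0.33, limma adjusted p = 0.0745, 3 of 3 libraries lower), and in the authors' deposited table -1.07 with adjusted p = 0.021. Tnf was called lower in cKO LPS than in control saline in 5 of 20 alternatives, among them DESeq2 (adjusted p = 0.014), array weights (0.0268), quantile normalization (0.0324) and the fit without control LPS library 1 (0.046). Without cKO LPS library 3, the lowest in Tnf, the deepest and the one of its group with high Xist, the differences were -0.80 from control LPS and -0.78 from control saline.

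The position of Tnf in the authors' deposited tables runs from 1449051 to 35202007 on chromosome 17, far longer than the gene. The ends in those tables equal those of RefSeq for 16575 of 16575 tested genes, but the starts of 851, Tnf among them, lie elsewhere, while those of the remaining 15724 are 1 base lower throughout. The stretches counted for Tnf by the authors were not given in the sources used here. Levels of Tnf per kilobase, and its ratio to Adam17, therefore assume its annotated exons.

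Genes of immediate-early and dissociation responses were followed beside Tnf. The 14 listed genes, Fos, Jun and Egr1 among them, summed to 449000, 540000 and 330000 normalized counts in cKO LPS, 456000, 484000 and 569000 in control LPS and 983000, 982000 and 661000 in control saline, and none was at 0 in any library. The cKO LPS library with the lowest sum also had the lowest Tnf. Of the 14 genes 4 fell in control LPS against control saline, 0 changed in cKO LPS against control LPS and 6 fell in cKO LPS against control saline (limma). Over all tested genes 0.923%, 0% and 1.41% were called lower in these comparisons. Neutrophil markers were called higher in 11 of 11 cases in control LPS against control saline and in 9 of 11 in cKO LPS against control saline. The shares of all tested genes called higher there were 4.68% and 5.41%. None of the 11 was called between cKO LPS and control LPS, but all 11 log2 fold changes were negative, at a median of -1.24, beside -1.18 for Tnf. Ngp, Camp, Ltf and Mpo were lower in cKO LPS without overlap, at -2.44, -3.06, -2.84 and -2.63 (limma unadjusted p = 0.00646, 0.0192, 0.0131 and 0.0203, adjusted p = 0.9999 for each). Of all tested genes 2.32% were lower without overlap. In the same comparison the median was -0.26 for the immediate-early list, -0.55 for the NK and cytotoxic cell list and -1.71 for the astrocyte list, none with a gene called. Astrocyte markers were high in control LPS library 1 alone. They summed to 81100, 4950 and 7570 in control LPS libraries 1 to 3 and to 7020, 7170 and 5220 in cKO LPS. Control LPS library 2, with the highest neutrophil sum (93400), had the highest Tnf. In cKO LPS libraries 1 to 3 the neutrophil sums were 11100, 20500 and 15200, and library 3 was the lowest in Tnf. Saline libraries had neutrophil sums of 764 to 1630 and Tnf at 20853 to 23284. The part of these cells and responses in the Tnf values was not tested.

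**Figure D3:**
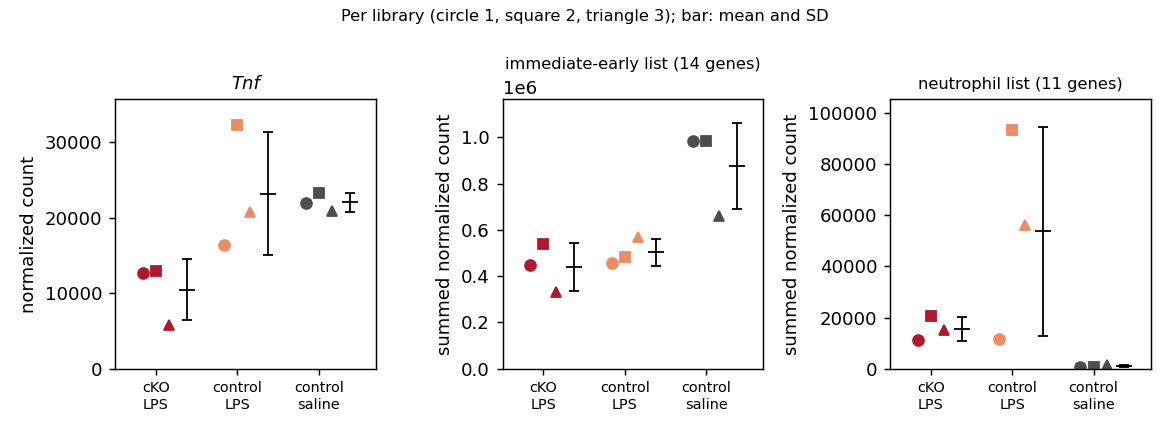
Tnf (normalized count), the immediate-early list of 14 genes and the neutrophil list of 11 genes (summed normalized counts) in each library, with the mean and SD of each group. cKO LPS library 3 (triangle) is lowest in Tnf at 5776 and in the immediate-early sum at 330000, and control LPS library 2 (square) is highest in Tnf at 32334 and in the neutrophil sum at 93400.

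Tnfsf9 (chromosome 17, 57105287 to 57107758, plus strand) encodes 4-1BB ligand, which costimulates T cells and NK cells. It had 562, 827 and 1464 normalized counts in cKO LPS, 797, 4427 and 1016 in control LPS and 615, 971 and 526 in control saline. A single library, control LPS 2, was high, and the groups overlapped otherwise. That library also had the highest neutrophil and monocyte sums, and the part of those cells in Tnfsf9 was not tested. Control LPS differed from control saline by 1.17 on the log2 scale (SE 0.61, limma adjusted p = 0.348), and by 0.40 without control LPS library 2. Its exons overlap those of Gm11110 on the other strand, and whether strand was used in counting is not given in the sources used here.

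Tnfsf10 (chromosome 3, 27317077 to 27339665, plus strand) encodes TRAIL, which triggers death of target cells and is known as an interferon-induced gene. It had 681, 410.2 and 344 normalized counts in cKO LPS, 573, 591 and 523 in control LPS and 562, 370.0 and 475 in control saline. The 3 groups overlapped, and none of the 3 differences exceeded 0.30 on the log2 scale (limma adjusted p from 0.628 to 0.9999). Between control LPS and control saline the 95% interval ran from -0.30 to 0.86. Endothelial markers, whose 6 genes summed to 26700, 9550 and 6640 in cKO LPS, 20200, 14900 and 9630 in control LPS and 30500, 14700 and 21700 in control saline, gave the same order of libraries as Tnfsf10 within cKO LPS and within control saline but not within control LPS, and none was at 0. Their part in its values was not tested.

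Tnfsf13b (chromosome 8, 10006229 to 10036000, plus strand) encodes BAFF, which B cells need to survive. It had 958, 1134 and 1388 normalized counts in cKO LPS, 809, 1359 and 1288 in control LPS and 435, 547 and 590.4 in control saline. All 6 LPS libraries were above all 3 saline libraries, and the lowest of the 6 was control LPS library 1. Control LPS was 2.16-fold higher than control saline (log2 fold change 1.11, SE 0.23, limma adjusted p = 0.0257). The cKO LPS libraries were 2.20-fold higher than control saline (1.14, SE 0.23, limma adjusted p = 0.0206). Between cKO LPS and control LPS the difference was 0.03 (95% interval -0.49 to 0.55, limma adjusted p = 0.9999).

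Both calls of Tnfsf13b were lost when certain single libraries were left out. Control LPS against control saline gave adjusted p = 0.104 without control LPS library 2, 0.102 without library 3, and 0.0938, 0.0757 and 0.0537 without saline libraries 1, 2 and 3. On those 2 groups alone it was 0.0636. Its log2 fold change in these fits lay between 0.97 and 1.20. Against control saline, cKO LPS gave adjusted p = 0.0674 and 0.0835 without cKO LPS libraries 2 and 3, and 0.0769 and 0.0575 without saline libraries 1 and 2. The authors' deposited tables gave adjusted p = 0.000384 and 0.000287 for these comparisons.

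Among the receptors, Tnfrsf1a (chromosome 6, 125349723 to 125362483, plus strand) varied least, by 1.35-fold over the 9 libraries. It had 7599.7, 8925 and 8768 normalized counts in cKO LPS, 8435, 10004 and 8258 in control LPS and 7423, 7999.6 and 8603 in control saline. The groups overlapped throughout. The 95% interval of control LPS against control saline was -0.14 to 0.44 on the log2 scale (limma adjusted p = 0.596), and that of cKO LPS against control LPS -0.36 to 0.21.

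Tnfrsf1b (chromosome 4, 145212368 to 145246870, minus strand) had 17974, 19818 and 21484 normalized counts in cKO LPS, 14317, 21762 and 19068 in control LPS and 12575, 15568 and 15232 in control saline. All 3 cKO LPS libraries were above the saline libraries, whereas control LPS library 1 lay inside the saline range. The log2 difference was 0.45 between cKO LPS and control saline (SE 0.18, limma adjusted p = 0.178) and 0.33 between control LPS and control saline (SE 0.18, limma adjusted p = 0.366), and neither passed. The ratio of the receptor genes within a library, Tnfrsf1b over Tnfrsf1a per kilobase, does not depend on scaling between libraries. It was 1.61, 1.51 and 1.66 in cKO LPS, 1.15, 1.48 and 1.57 in control LPS, and 1.15, 1.32 and 1.20 in control saline. All cKO LPS values lay above all saline values, control LPS overlapped both groups, and the ratio was not tested.

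Cd40 (chromosome 2, 165055614 to 165071654, plus strand), a receptor that receives T cell help through CD40 ligand, had 151, 125 and 69.6 normalized counts in cKO LPS. It had 123, 336 and 137 in control LPS and 121, 40.2 and 61.0 in control saline. The control LPS libraries lay above saline, though the lowest of the first and the highest of the other were close (122.5 and 121.4), and cKO LPS overlapped both groups. The log2 fold change of control LPS against control saline was 1.40 (SE 0.52, limma adjusted p = 0.183), 0.94 without control LPS library 2. Its highest library was again control LPS 2. No alternative called it, and adjusted p ranged from 0.089 to 0.51.

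Adam17 (chromosome 12, 21323509 to 21373632, minus strand), the protease that sheds TNF and its receptors, had 11530.4, 11934 and 12092 normalized counts in cKO LPS. It had 8353, 11217 and 12533 in control LPS and 6830.4, 7922 and 8189 in control saline. All 6 LPS libraries were above saline, and cKO LPS was the tighter group, with an SD of 289.7 normalized counts against 2138 in control LPS. Against control saline it rose 1.55-fold in cKO LPS (log2 fold change 0.64, SE 0.16, limma adjusted p = 0.047). In control LPS the log2 fold change from saline was 0.47 (SE 0.16, limma adjusted p = 0.144), and between cKO LPS and control LPS it was 0.17 (95% interval -0.19 to 0.53). A threshold passed by one LPS group and missed by the other does not show that they differ. Its exons overlap those of Iah1 on the other strand.

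The call of Adam17 in cKO LPS against control saline held in 10 of 20 alternatives. It was lost without any 1 of the cKO LPS libraries (adjusted p = 0.115, 0.132 and 0.142 without libraries 1, 2 and 3), without any 1 saline library (0.160, 0.0966 and 0.0758), and without control LPS library 2 (0.0603), at log2 fold changes of 0.56 to 0.69. No filter on low values gave 0.057, TMM scaling 0.0622 and edgeR on the recovered reads 0.0713. Without control LPS library 1 control LPS was also called above control saline, at 0.64 (adjusted p = 0.0204). Tnf over Adam17 per kilobase, a ratio within each library that was formed after the values were seen, averaged 3.88 ± 1.56 in cKO LPS, 9.48 ± 2.77 in control LPS and 12.7 ± 1.46 in control saline (SD, n = 3 each). The highest cKO LPS value, 4.82, was below the lowest of control LPS, 7.25, and of control saline, 11.1. Against saline this was fixed by the values above, as every cKO LPS library was lower in Tnf and higher in Adam17. It adds nothing to those values, and the ratio was not tested.

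Traf1 (chromosome 2, 34941750 to 34961812, minus strand), an adaptor that binds TRAF2 at TNF receptors and is itself a known NF-kB target, had 262, 238 and 397 normalized counts in cKO LPS. It had 196, 335 and 267 in control LPS and 107, 49.9 and 57.8 in control saline. All 6 LPS libraries were above all 3 saline libraries. It was 3.80-fold higher in control LPS than in control saline (log2 fold change 1.93, SE 0.35, limma adjusted p = 0.0153). It was 4.27-fold higher in cKO LPS than in control saline (2.09, SE 0.35, limma adjusted p = 0.00925). The interval of the difference between cKO LPS and control LPS was -0.62 to 0.95. The call of cKO LPS against control saline held in 20 of 20 alternatives. That of control LPS against control saline gave adjusted p = 0.0665 and 0.0638 without control LPS libraries 2 and 3, 0.0592 and 0.0546 without saline libraries 2 and 3, and 0.0503 in a fit on those 2 groups alone.

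Markers of other cells rose with LPS beside Traf1 and Tnfsf13b. Beside the neutrophil markers above, 6 of 10 monocyte markers and 4 of 9 NK and cytotoxic cell markers rose in control LPS against control saline, and the same counts, 6 of 10 and 4 of 9, were called in cKO LPS against control saline. Over all tested genes 4.68% and 5.41% were called higher in these comparisons. Monocyte markers summed to 14500 to 28800 in cKO LPS, 16500 to 43400 in control LPS and 6300 to 9140 in control saline, with none at 0. NK and cytotoxic cell markers summed to 858 to 1290 in cKO LPS, 621 to 4390 in control LPS and 103 to 266 in control saline, where Ncr1 and Klre1 were at 0 in at least 1 library. The part of these cells in the rises was not tested.

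Genes around the 9 in the pathway were grouped in 6 lists, whose counts stand beside 4.68% of all tested genes called higher and 0.923% lower in control LPS against control saline. Among 8 tested of 14 other ligand genes 1 rose in control LPS against control saline and none fell, at a median of 1.41. This was Tnfsf13, which encodes APRIL, a relative of BAFF with shared receptors. It had 227, 193 and 209 normalized counts in cKO LPS, 158, 211 and 202 in control LPS and 48.4, 37.4 and 22.5 in control saline. All 6 LPS libraries were above saline. It was 5.36-fold higher in control LPS than in control saline (limma adjusted p = 0.00376), and the call held in 20 of 20 alternatives.

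The other ligand genes to be named did not pass in control LPS against control saline. Fasl, a death ligand of cytotoxic cells, had 11.9, 14.7 and 9.34 normalized counts in cKO LPS, 8.88, 10.3 and 54.3 in control LPS and 0.987, 0 and 3.21 in control saline (adjusted p = 0.0529), with its highest value in the library of the highest NK and cytotoxic sum, control LPS 3. The part of those cells was not tested. Tnfsf12, which encodes TWEAK, differed by 0.60 on the log2 scale (adjusted p = 0.0635) and was called in cKO LPS against control saline at 0.74 (adjusted p = 0.0262). Tnfsf8, which encodes CD30 ligand, differed by 1.86 (adjusted p = 0.0858). Lta, Tnfsf4, Cd40lg, Cd70, Tnfsf11 and Tnfsf15 were not among the tested genes.

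Of 21 tested receptor genes of the other 25, 2 rose and none fell in control LPS against control saline, at a median of 0.03. Tnfrsf9, the receptor of 4-1BB ligand, had 24.9, 35.1 and 32.3 normalized counts in cKO LPS, 15.98, 24.4 and 90.1 in control LPS and 3.95, 1.39 and 0 in control saline (log2 fold change 3.90, adjusted p = 0.0203). Tnfrsf8, the receptor CD30, had 61.6, 71.8 and 71.3 in cKO LPS, 30.2, 68.7 and 67.1 in control LPS and 17.8, 6.93 and 9.63 in control saline (2.18, adjusted p = 0.0277). Both are known from activated lymphocytes, and the part of those cells in the rises was not tested. Control LPS library 3 was again the highest in Tnfrsf9, whose fold rests on few saline reads, while cKO LPS library 2 was the highest in Tnfrsf8. Tnfrsf17, the plasma cell receptor of BAFF and APRIL, differed by -1.78 (adjusted p = 0.154) and the decoy receptor gene Tnfrsf22 by -0.62 (adjusted p = 0.268).

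None of 26 adaptors, ligases and kinases was called in either direction, at a median of 0.12. Fadd, the death domain adaptor, differed by -0.48 (adjusted p = 0.108), Traf5 by -0.53 (adjusted p = 0.174), the kinase gene Map3k8 by 0.58 (adjusted p = 0.185) and the ubiquitin ligase gene Birc3 by 0.56 (adjusted p = 0.197).

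Of 12 inhibitors 2 rose and none fell, at a median of 0.14. Tnip1, a ubiquitin-binding partner of A20, had 1814, 2070.5 and 2110.4 normalized counts in cKO LPS, 1798, 2288 and 1818 in control LPS and 1159, 1104 and 869.6 in control saline (log2 fold change 0.92, adjusted p = 0.00997). Tank, a TRAF-binding brake on NF-kB, had 1219, 1168 and 1452 in cKO LPS, 1138, 1519.96 and 1381 in control LPS and 859.8, 843 and 751 in control saline (0.71, adjusted p = 0.0255). In both genes all 6 LPS libraries were above saline. Spata2 at 0.33 and Tnip2 at 0.23 did not pass (adjusted p = 0.48 and 0.512).

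Of 10 tested genes of shedding and cleavage 1 rose and none fell, at a median of 0.35. This was Adam8, a metalloprotease of leukocytes, with 584, 1005 and 1439 normalized counts in cKO LPS, 536, 3109 and 1359 in control LPS and 173, 249 and 160.4 in control saline (log2 fold change 2.78, adjusted p = 0.0242). Its highest value was in control LPS library 2, where neutrophil markers were highest, and their part was not tested. Rhbdf2, which carries ADAM17 to the cell surface in myeloid cells, differed by 1.09 (adjusted p = 0.0805), Adam9 by 0.84 (adjusted p = 0.084) and Frmd8, which stabilizes the complex, by -0.35 (adjusted p = 0.106). Adam9 and Adam8 were both called in cKO LPS against control saline, Adam9 2.18-fold (adjusted p = 0.0252) and Adam8 4.94-fold (adjusted p = 0.044).

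None of 12 genes that control Tnf mRNA was called, at a median of 0.02. Zfp36, which encodes tristetraprolin and promotes decay of Tnf mRNA, had 103847, 130244 and 68623 normalized counts in cKO LPS, against means of 117867 ± 1494.0 in control LPS and 181142 ± 34145 in control saline (SD, n = 3 each; log2 fold change -0.60, adjusted p = 0.313). Its lowest library, cKO LPS 3, was also the lowest in Tnf. Mapkapk2, the kinase that inactivates tristetraprolin, differed by 0.89 (adjusted p = 0.0556), the decay nuclease gene Zc3h12a by 0.67 (adjusted p = 0.266) and the stabilizing factor gene Elavl1 by -0.33 (adjusted p = 0.174). In cKO LPS against control saline 1 gene of this list rose, Mapkapk2 at 0.94 (adjusted p = 0.0402). Over all tested genes 5.41% were called higher in that comparison.

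**Figure D4:**
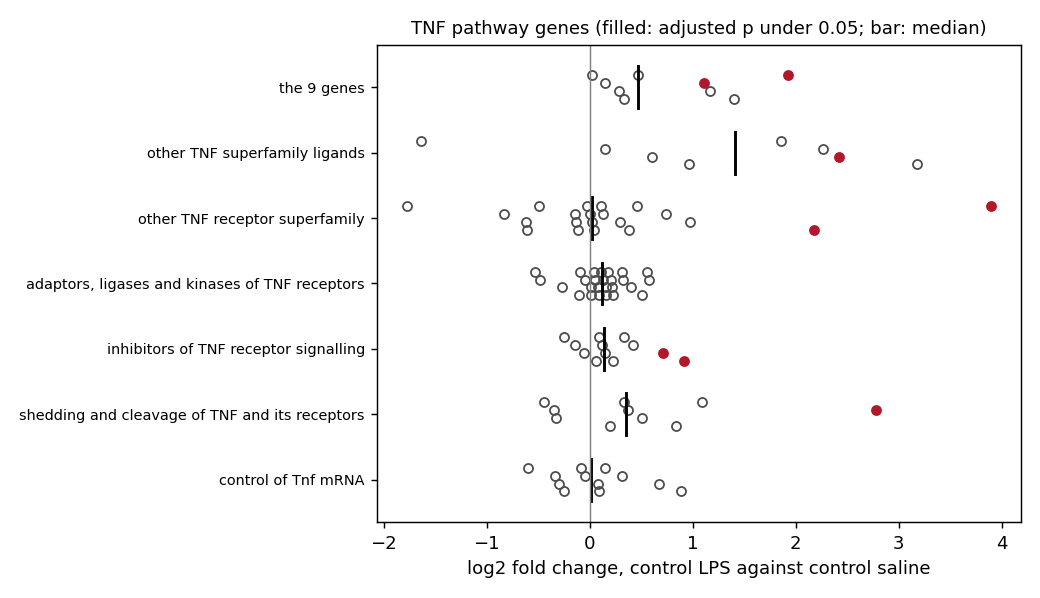
Log2 fold change of control LPS against control saline (x axis) for each tested gene of the 9 described here and of the 6 pathway lists, with filled circles where adjusted p was under 0.05 and a bar at the list's median. Filled are 2 of the 9 genes and 0 to 2 in each list, all above 0, where 4.68% of all tested genes were called higher and 0.923% lower.

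Leaving out single libraries moved these small counts. Over the 9 such fits of control LPS against control saline, 1 to 5 ligands, 0 to 2 other receptors, 0 to 1 adaptors, 1 to 2 inhibitors, 0 to 3 shedding genes and 0 to 1 mRNA control genes were called. Tnfrsf9 lost its call without control LPS libraries 2 or 3 (adjusted p = 0.0579 and 0.073) or saline libraries 2 or 3 (0.068 and 0.0578). Tnfrsf8 lost it without the same 4 libraries (0.118, 0.11, 0.0928 and 0.0742) or cKO LPS libraries 1 or 2 (0.0542 and 0.0537). Tank and Adam8 lost theirs without control LPS libraries 2 or 3 (0.105 and 0.0931 for Tank, 0.0572 and 0.0863 for Adam8) or any saline library (0.0681, 0.0722 and 0.0738 for Tank, 0.0826, 0.0644 and 0.082 for Adam8). Without control LPS library 1, calls came for Fasl (adjusted p = 0.026), Tnfsf12 (0.0219), Rhbdf2 (0.039), Adam9 (0.00348), Mapkapk2 (0.0396) and Map3k8 (0.0424), without cKO LPS library 3 for Tnfsf8 (0.0295), and without control LPS library 3 for Tnfrsf17, lower (0.0401). In cKO LPS against control saline 5.41% of all tested genes were called higher and 1.41% lower. The calls in the lists, all higher, were 2 of 8 ligands, 2 of 21 receptors and 0 of 26 adaptors. They were 2 of 12 inhibitors, 2 of 10 shedding genes and 1 of 12 mRNA control genes. Without single libraries these counts ran from 1 to 3 for ligands, 0 to 4 for receptors, 1 to 3 for inhibitors, 0 to 2 for shedding genes and 0 to 1 for mRNA control genes, and stayed at 0 for adaptors. Between cKO LPS and control LPS no gene of the 6 lists was called in any alternative, with medians from -0.39 for the ligands to 0.05 for the control of Tnf mRNA.

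The genes whose levels ran most like each of the 9 over the 9 libraries were found by Pearson's r of log2(value + 1) among 13207 genes with a mean of at least 50. These values describe the libraries, which the genes share along with their depth and cell mix, and carry no p. For Tnf they were Lefty1 (r = 0.922), Il15 (0.895) and Agpat2 (0.869), lower than the best matches of the other genes. Without control LPS library 1 they stood at 0.971, 0.9 and 0.898. For Tnfsf9 they were Ppp2r5a, Ampd3 and Dedd2 (0.984, 0.97 and 0.96), and for Tnfsf10 Icam2, Cav1 and Gimap8 (0.934, 0.929 and 0.924). For Tnfsf13b they were Bst1, Rspo1 and Galnt7 (0.99, 0.986 and 0.985).

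For Tnfrsf1a the closest were Nfam1, Dym and Med8 (r = 0.941, 0.931 and 0.922), and for Tnfrsf1b Smarcd2, Adam10 and Ticam2 (0.981, 0.973 and 0.968). Adam10 is a protease related to ADAM17 and was in the list of shedding genes. For Cd40 they were Pdlim7, Prr5l and Rasgrp2 (0.961, 0.955 and 0.939), for Adam17 Manba, Qars and Gnpda1 (0.983, 0.979 and 0.978), and for Traf1 Rxrg, Ccdc69 and Gm30474 (0.987, 0.986 and 0.984). With Spearman's rho the first place was held by another gene for 8 of the 9, Smarcd2 being the exception for Tnfrsf1b.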

How the data were processed

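Per the labels' protocols, libraries of 9 samples of CD11b-sorted cells were made with a strand-marking kit that selects polyadenylated RNA. The authors deposited normalized signal, gene counts divided by a size factor, for 23134 genes, and 3 tables of log2 fold changes with standard errors given as score columns, Wald scores, p-values and adjusted p-values. The submitters' processing notes name STAR, RSEM, featureCounts, DESeq2, edgeR 3.30.3, Trimmomatic, FastQC and MultiQC 1.12, and build mm10. As to their roles, the annotation and the use of strand, each is not given in the sources used here. Dividing by the step of 1 read per library gave whole reads, within 0.01, for 100% of the deposited values.

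Genes with a mean of at least 10 over the 9 libraries were tested on log2(value + 1) with limma 3.58.1 (trend option, R 4.3.3), in 1 fit with 6 residual degrees of freedom and Benjamini-Hochberg adjustment over 16575 genes within each contrast, at 0.05. Fold changes on this scale understate those of low genes. No replicate pair agreed within sampling noise (chi-square per degree of freedom 35.2 to 196). Exon lengths are unions from GENCODE M21, found for 92.8% of tested genes. edgeR 4.0.16 and DESeq2 1.42.0 on recovered reads were alternatives, with other pseudocounts, filters, scalings, weights and left-out libraries, 20 in all. The members and gene lists were chosen with earlier results of these data known, so no list was tested. The rule for names took the 9 genes, up to 4 genes of each pathway list with the smallest adjusted p in control LPS against control saline, and the 3 genes most like each member. Locations are from RefSeq on GRCm38.p6, the assembly of mm10.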

Additional observations from a re-analysis of the deposited data

How the results depend on the processing

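Members called in control LPS against control saline were 2, 4 with array weights and 0 in a fit on those groups alone, and 0 to 3 without single libraries. In cKO LPS against control saline they were 3, 5 with array weights, and 1 to 4 without single libraries. Between cKO LPS and control LPS they were 0 throughout. Over all genes, control LPS against control saline called 929, against 1777 with DESeq2, 2789 with array weights (1921 higher and 868 lower, where 776 and 153 were called by limma), 417 on those groups alone and 374 to 1826 without single libraries. Quantile normalization gave 568 higher and 243 lower, with the median of all genes at -0.104. For cKO LPS against control LPS the count was 0, with 4 by DESeq2, 1 on those groups alone and 0 to 1 without single libraries. For cKO LPS against control saline it was 1131, with 2099 by DESeq2, 3182 with array weights (2014 higher and 1168 lower, against 897 and 234) and 490 to 1656 without single libraries. Directions turned in differences that no fit called. In control LPS against control saline Tnf became -0.106 with quantile normalization, -0.249 without control LPS library 2 and -0.02 without saline library 3, and reached 0.238 without single libraries. In cKO LPS against control LPS Tnfsf13b became -0.205, Tnfrsf1b -0.0135 and Traf1 -0.0468 with array weights. Without cKO LPS library 3 Tnfsf13b became -0.108 and Traf1 -0.0569, and without control LPS library 1 Tnfsf13b became -0.207, Tnfrsf1b -0.0478, Adam17 -0.000883 and Traf1 -0.0359. Tnfrsf1a became 0.0109 without control LPS library 2. The other ends of these ranges without single libraries were 0.167 for Tnfsf13b, 0.254 for Tnfrsf1b, 0.292 for Adam17, 0.348 for Traf1 and -0.127 for Tnfrsf1a. In cKO LPS against control saline Tnfrsf1a became -0.0454 with quantile normalization, and Tnfsf10 became 0.0401 with edgeR, 0.0148 with DESeq2, and 0.0664, 0.193, 0.128 and 0.00662 without cKO LPS libraries 2 and 3 and saline libraries 1 and 3, with -0.299 as its lowest. The cause was not tested, except that fits without a library have fewer samples. A replicate block changed the call of Tnf in cKO LPS against control saline (adjusted p = 0.0481) and of no other of the 9 genes, brought calls for Fasl (0.0466) and Tnfsf12 (0.0464) in control LPS against control saline, and called 926, 0 and 1286 genes in the 3 comparisons. Same-numbered libraries correlated at -0.07 to 0.47 in their deviations from group means, and 8 of 9 libraries were closest to their own number, a hint from the data only. Saline library 3 was the shallowest, and depth there limits genes with few reads, Cd40 (19 reads) and Traf1 (18) among the 9, and Tnfsf13, Tnfrsf8, Tnfrsf9 and Fasl, whose normalized counts there were 22.5, 9.63, 0 and 3.21.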
